A study of Mus musculus with 4 samples.

Results

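Effector and memory CD4 T cells were picked out of single-cell RNA profiles of mouse adipose tissue. A cell was a member when it had at least 2 UMIs (unique molecular identifiers, each standing for 1 captured transcript) of Cd3e, Cd3d and Cd3g together and at least 1 UMI of Cd4. It could hold no UMI of Cd8a, Cd8b1, Foxp3 or Cd79a, and at most 1 UMI of Lef1 and Ccr7 together. This gave 103 members among the 4136 barcodes kept after filtering, which is 2.49% of them. They came from 4 libraries, called WT SC, KO SC, WT IP and KO IP, and wherever 4 values follow each other below they are in that order. The libraries held 17, 44, 24 and 18 members.

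SC stands for subcutaneous and IP for visceral intraperitoneal adipose tissue. WT mice were Tie2e-cre; TERT+/+; mTmG, and KO mice were Tie2e-cre; TERTfl/fl; mTmG. Both groups were 7 months old and male, and both had received high-fat diet for 5 months, so no library came from mice without the diet or without the recombinase. Tie2e-cre expresses Cre from regulatory sequence of Tie2, which is active in endothelial cells and also in blood cell lineages, and mTmG switches a cell from tdTomato to GFP once Cre has acted. Each group was 1 library. How many mice gave rise to a library is not given in the sources used here. The labels speak of cells in one place and of a nuclei suspension in another. Without replicates, no comparison below carries a test, and every interval is a 95% interval that covers counting error only, not differences between mice or between cells.

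CD4 T cells recognise peptides on MHC class II and help other immune cells. Naive CD4 T cells circulate through lymphoid tissue with the help of the receptor Ccr7, express the transcription factor Lef1, and many lose both after they have met antigen. The resulting effector and memory cells enter tissues such as fat and take on programmes named for their cytokines. Th1 cells use the transcription factor T-bet (Tbx21) and make interferon gamma, Th2 cells use Gata3 and make Il4 and Il13, and Th17 cells make Il17a and Il17f. CD40 ligand (Cd40lg) is the signal by which helper cells activate B cells and macrophages, Ccr4 is a chemokine receptor, and Tnfsf8 encodes CD30 ligand, also called CD153.

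The 103 members held 759309 UMIs. Median depth per member was 7920, 6692.5, 5787.5 and 6968.5 UMIs. Scrublet marked 2 members as doublets, and they were kept as the rule has it. In WT IP 1 member carried 5492 haemoglobin UMIs and another carried 1001 UMIs of the stromal genes Dcn, Col1a1 and Col3a1, and in KO IP 1 member carried 5751 haemoglobin UMIs. Several results are also given without these 3 barcodes. For chosen genes, 129 called differences were computed once more without the member that held most of the gene's UMIs in the higher library. Both choices were made after the values had been seen. The second leaves out no member of the lower library, so ratios mostly shrink by construction. Other called genes, such as Tox, Il1r1, Tmem176a, Il18r1, Id2 and Rgs2, were not computed again in this second way. Barcodes were compared between libraries, and KO SC and WT IP shared 93 of them. All 93 were among the kept barcodes of WT IP, none was a CD4 T cell in either library, and no member's barcode occurred in another library. Tert, the targeted gene, had no UMI in any member, which allows up to 10.4 CPM (UMIs of a gene scaled to a member total of 1000000) in KO SC and 22.2 CPM in WT SC. All kept cells together gave 3, 2, 8 and 9 UMIs of Tert. Which part of Tert is deleted is not given in the sources used here, so these counts could not serve as a check of the genotype labels.

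The markers of the name were present. Cd40lg was detected in 68.9% of members (59.1 to 77.7%), Tnfsf8 in 60.2% (50.1 to 69.7%) and Ccr4 in 29.1% (20.6 to 38.9%). Among naive CD4 T cells, which met the same rule except for 2 or more UMIs of Lef1 and Ccr7, the shares were 40.3%, 19.6% and 5.6%. Among regulatory T cells, which carried Foxp3, they were 23.4%, 23.4% and 19.1%. B cells stood for the background of free RNA, and 0 of 797 had a UMI of Cd40lg while 1 had a UMI of Tnfsf8 and 1 of Ccr4. After each cell was thinned to 2000 UMIs, so that depth was equal, the shares were 37.3% of members for Cd40lg, 40.2% for Tnfsf8 and 9.8% for Ccr4, against 15.1%, 10.4% and 1.1% of naive cells. At least 1 of the 3 genes was seen in all but 13 members, and all 3 together in 15.

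**Figure D1:**
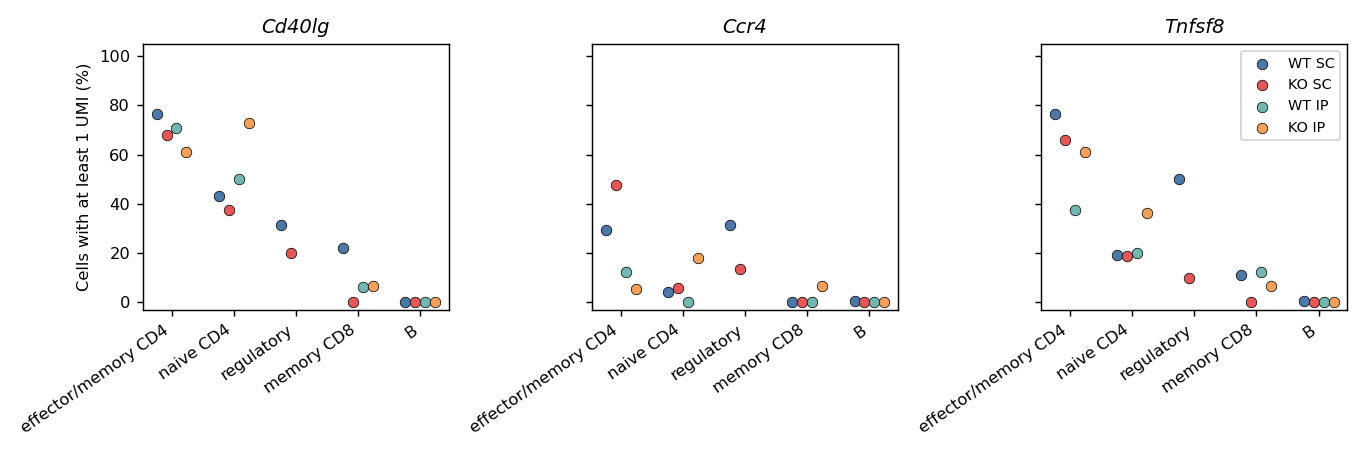
Share of cells (%) with at least 1 UMI of Cd40lg, Ccr4 and Tnfsf8 in 5 populations; each point is 1 library, and populations with fewer than 5 cells in a library are left out. In both SC libraries the members lie above the naive CD4 T cells for all 3 genes, while in KO IP the naive cells lie above the members for Cd40lg and Ccr4.

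The libraries differed in these markers. Tnfsf8 was at 643, 843, 224 and 674 CPM, with 13 of 17, 29 of 44, 9 of 24 and 11 of 18 members carrying a UMI. WT IP was the low library, and its interval of 161 to 304 CPM did not meet that of any other. Ccr4 was at 88.6 and 107 CPM in the SC libraries and at 16.4 and 6.61 CPM in IP, where it rests on 3 UMIs and 1 UMI. The Ccr4 intervals of WT SC (45.8 to 155 CPM) and WT IP (3.38 to 47.9 CPM) just met, and 1 member held 7 of the 12 UMIs of WT SC. The haemoglobin-rich member of KO IP held 20 of its 102 Tnfsf8 UMIs. Cd40lg was more even, at 273, 259, 301 and 198 CPM in the same order, and its 4 intervals all overlapped.

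The rule used Lef1 and Ccr7, so a contrast with naive CD4 T cells only describes what was selected. Ordered by the smallest of the 4 libraries' differences, Mast4, a kinase gene, came first and Tnfsf8 next. Tnfsf11 (RANK ligand), Alcam (a CD6 ligand), S100a4, Anxa2, Fos, Pkp3, Galnt2, Cxcr6, S100a11, Klf4, Pgm2l1, Maf and Vim followed. S100a4, a calcium-binding protein of motile cells, was at 1677 CPM against 91.0 in naive cells of WT SC and at 2153 against 976 in KO IP. Cxcr6, a receptor of tissue-resident T cells, was at 436 CPM against 2.22 in WT SC and at 192 against 106 in KO IP. For both genes the naive cells lay further below the members in WT SC than in KO IP, where 11 naive cells were found. Lower in members were Bach2 and Foxp1, both of which restrain differentiation of T cells, together with Klf3, Scml4, Znrf3, Satb1, Ikzf1, Man1a, Crlf3, Dip2b, Aff3, Prkca, Scaf11 and Ube2h.

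The edge of the rule was soft. The 81 members without Lef1 or Ccr7 had Tnfsf8 at 667 CPM and S100a4 at 1792, and the 22 members with 1 UMI had 468 and 1745. The 14 cells with 2 UMIs, just outside, had 757 and 1604 CPM. Both values are within the range of the members over the 4 libraries (224 to 843 and 1506 to 2153 CPM). The 8 cells with 3 UMIs had no Tnfsf8 and 511 CPM of S100a4, and the 14 with 4 UMIs had 405 and 288. The 321 cells with 5 or more UMIs had 100 and 87.7 CPM. With Cd3 the edge hardly mattered, since 1 member had exactly 2 UMIs of the Cd3 genes and 102 had 3 or more.

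Regulatory T cells could be compared in SC only, since WT IP held none among 34 CD4 T cells, which allows up to 8.82%, and KO IP held 1. Against them the members of both SC libraries were led by Il17f, Il1r1 (the receptor of interleukin 1), Pxdc1, Klrk1 (the receptor NKG2D), Furin, Cxcr6, Atp8b4 and Nmrk1. Il1r1 was at 177 CPM in WT SC and 142 in KO SC, with no UMI in the regulatory T cells of either. Lower in members were Birc5, Ube2c, Pclaf, Hist1h1b, Nusap1 and Cdk1, which are genes of dividing cells, and Dscam and Tmtc2.

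The next question was how large a part of the CD4 T cells the members made up in each depot. The CD4 T cells here included regulatory T cells, and the soft edge of the rule keeps this share from measuring how many cells had left the naive state. Members made up 13.5% of CD4 T cells in WT SC (17 of 126; 8.06 to 20.7%) and 13.9% in KO SC (44 of 317; 10.3 to 18.2%). In IP they made up 70.6% in WT (24 of 34; 52.5 to 84.9%) and 60.0% in KO (18 of 30; 40.6 to 77.3%). IP thus lay above SC in both genotypes with intervals far apart, while WT and KO overlapped within each depot. Of all kept cells, members were 1.75% (1.02 to 2.79%), 2.23% (1.63 to 2.99%), 3.56% (2.29 to 5.24%) and 3.45% (2.06 to 5.41%), and these intervals overlapped throughout. The depot contrast therefore came with the number of naive cells, 93 and 243 in SC and 10 and 11 in IP, and B cells followed the same split, with 297 and 456 in SC and 21 and 23 in IP. Fewer cells of one kind and more of another cannot be told apart in such shares. Thinning every cell to 2000 UMIs before the rule was applied lets naive cells lose their Lef1 and Ccr7 UMIs, and it gave 44.4%, 34.2%, 88.2% and 71.4%. IP stayed above SC in each genotype, but the intervals of the KO libraries (25.5 to 43.8% and 41.9 to 91.6%) met.

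**Figure D2:**
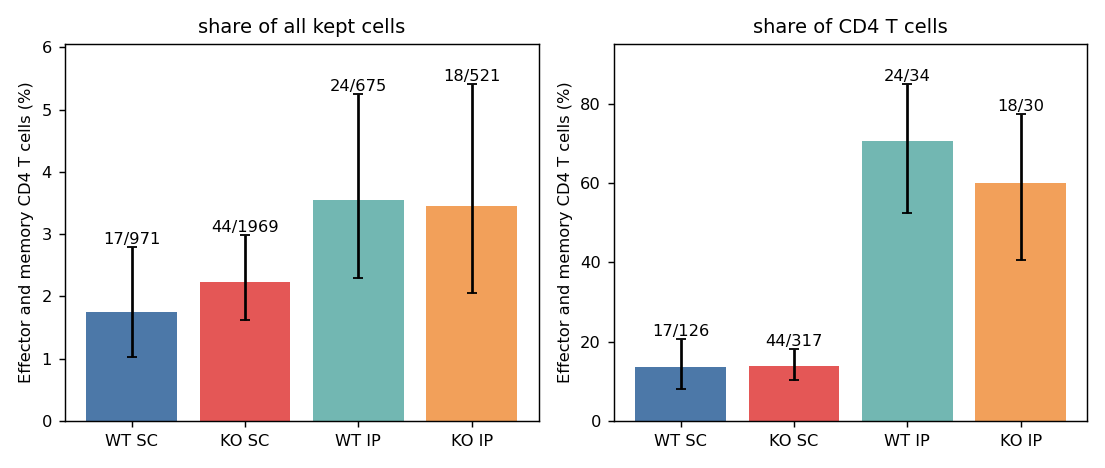
Effector and memory CD4 T cells as a percentage of all kept cells (left) and of CD4 T cells (right) in each library; bars are the share, error bars the exact 95% binomial interval, and the numbers are members over the denominator. As a share of CD4 T cells both IP libraries (70.6 and 60.0%) stand above both SC libraries (13.5 and 13.9%).

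Th1 and Th17 genes were seldom found in the same member. A UMI of at least 1 of the Th17 genes Il17a, Il17f, Il23r and Ccr6 was seen in 45 members, and a UMI of at least 1 of the Th1 genes Tbx21, Ifng, Cxcr3, Ccl5 and Nkg7 in 50. Only 7 members carried both, 38 carried Th17 genes alone, 43 carried Th1 genes alone and 15 carried neither. By library 1, 3, 2 and 1 members carried both, and in WT IP these were the only 2 members with a Th17 gene. The libraries differed in the share of each set, so the count of 7 does not measure exclusion within a library. These sets of 4 and 5 genes were put together after their values had been seen. Of the B cells, 0.376% had a UMI of a Th17 gene other than Ccr6, which B cells express themselves, and 3.64% had a UMI of a Th1 gene. Of the Th2 list, the cytokine genes Il4 and Il13 had no UMI in any member, which allows up to 2.91% of members to carry one. Of its 13 genes 7 were seen, and 14 of 17, 35 of 44, 11 of 24 and 10 of 18 members had a UMI of at least 1 of them. Gata3 was seen in 39.8% of members and in 22.1% of naive cells. Il21, a follicular helper cytokine, was seen in 0.971% of members.

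Th17 genes were highest in KO SC. The share of members with a Th17 gene was 35.3% (6 of 17; 14.2 to 61.7%), 68.2% (30 of 44; 52.4 to 81.4%), 8.33% (2 of 24; 1.03 to 27.0%) and 38.9% (7 of 18; 17.3 to 64.3%). KO was above WT in both depots and SC above IP in both genotypes, although the intervals of WT and KO overlapped within each depot. The share with a Th1 gene ran the other way, at 52.9% (27.8 to 77.0%), 18.2% (8.19 to 32.7%), 95.8% (78.9 to 99.9%) and 55.6% (30.8 to 78.5%). Here the intervals of WT and KO did not meet in IP and met in SC. After thinning to 2000 UMIs the Th17 shares were 17.6, 55.8, 0 and 22.2% and the Th1 shares 35.3, 9.30, 87.5 and 38.9% in that order, so the order of the libraries was unchanged for both.

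**Figure D3:**
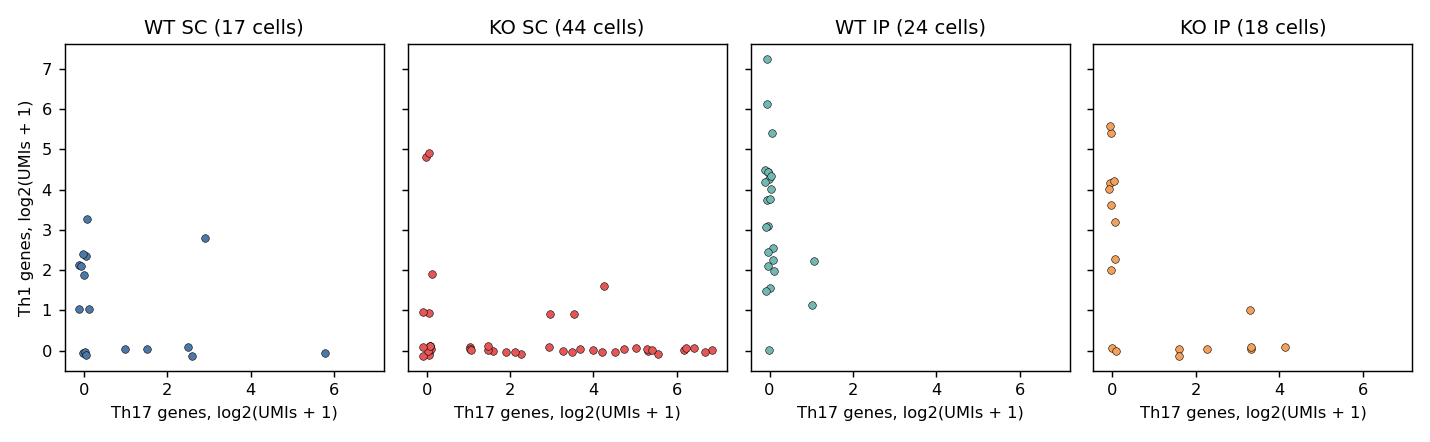
Each point is 1 member, placed by its summed UMIs of the 4 Th17 genes (x axis) and the 5 Th1 genes (y axis), both as log2(UMIs + 1) with a small random offset, in 1 panel per library. Points lie along the axes; 7 of 103 members carry both sets, and WT IP has no member with Th17 genes alone.

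Il17a and Il17f, the 2 cytokine genes that define the Th17 programme, lie next to each other on chromosome 1. Their promoters are shown with that of Ifng, the cytokine of the Th1 programme on chromosome 10. The sequences are the RefSeq windows (GRCm38.p6) from 250 bases before to 50 after the start, read 5′ to 3′ on the gene's strand. Capitals mark AGGTCA or its reverse complement TGACCT, a half-site that several nuclear receptors recognise.
Il17a (chr1:20730655-20730954, plus strand): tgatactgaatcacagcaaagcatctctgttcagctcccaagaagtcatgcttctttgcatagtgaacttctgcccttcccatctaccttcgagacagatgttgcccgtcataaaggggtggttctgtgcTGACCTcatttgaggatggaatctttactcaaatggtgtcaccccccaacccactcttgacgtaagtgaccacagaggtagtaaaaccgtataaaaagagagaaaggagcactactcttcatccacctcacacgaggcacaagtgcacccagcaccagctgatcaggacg
Il17f (chr1:20784221-20784520, minus strand): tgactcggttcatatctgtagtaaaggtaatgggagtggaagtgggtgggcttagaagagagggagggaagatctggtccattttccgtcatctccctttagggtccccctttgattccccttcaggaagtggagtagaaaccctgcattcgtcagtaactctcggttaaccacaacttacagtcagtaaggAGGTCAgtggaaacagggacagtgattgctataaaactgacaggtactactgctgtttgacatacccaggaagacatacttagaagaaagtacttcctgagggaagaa
Ifng (chr10:118440796-118441095, plus strand): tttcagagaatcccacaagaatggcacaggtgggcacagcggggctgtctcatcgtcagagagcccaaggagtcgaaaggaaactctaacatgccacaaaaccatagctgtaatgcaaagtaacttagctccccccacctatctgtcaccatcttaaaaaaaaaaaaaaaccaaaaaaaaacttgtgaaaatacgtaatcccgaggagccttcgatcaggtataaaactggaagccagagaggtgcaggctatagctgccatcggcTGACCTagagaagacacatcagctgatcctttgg
Each window held 1 match, and 16.3% of the 32851 promoters held at least 1 when both strands were searched. The T-box half-site GGTGTGA, searched in the same way and present in 3.98% of promoters, was in none of the 3 windows. A match is a description of letters, not a binding site. The RefSeq start of Il17f lies inside the GENCODE gene given below.

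Il17a (GRCm38 chromosome 1, 20730905 to 20734496, plus strand, protein coding) had 16 UMIs in WT SC, all in 1 member, 296 UMIs in 21 members of KO SC, none in WT IP and 36 UMIs in 6 members of KO IP. These are 118, 1022, 0 and 238 CPM. KO was above WT in both depots, with a log2 ratio of 3.07 (2.39 to 3.94) in SC. In IP the interval of the log2 ratio began at 3.49 and had no upper end. With WT set at the 3 UMIs that a count of 0 allows, and the KO count taken as it is, KO was 14.5-fold higher. Without the 3 barcodes with red cell or stromal transcripts this value was 9.63-fold, on 28 UMIs. Il17f (chromosome 1, 20777146 to 20790617, minus strand, protein coding) had 38 UMIs in WT SC, of which 1 member held 34, then 417 UMIs in 17 members of KO SC, none in WT IP and 2 in KO IP. Both were mostly found in the same cells, since 16 of the 22 members of KO SC with either gene carried both. In KO IP only 1 of 6 did, and there Il17a was seen nearly alone. The WT SC values rest on so few cells that they moved with the rule: the 16 UMIs of Il17a came from a member with 1 UMI of Lef1 or Ccr7, and none were left when only members without either gene were used.

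The receptor genes followed. Il23r, the receptor through which interleukin 23 maintains Th17 cells, was at 126, 228, 10.9 and 59.4 CPM. Ccr6, a homing receptor of Th17 cells, was at 22.2, 117, 0 and 26.4 CPM. In IP these levels rested on single members, since 1 member of KO IP held 7 of its 9 Il23r UMIs and 1 held all 4 Ccr6 UMIs. In SC the log2 ratio was 0.83 (0.07 to 1.72) for Il23r and 2.20 (0.74 to 4.75) for Ccr6, while in IP both genes had fewer than 20 UMIs in the pair of libraries and were not compared. Tmem176a and Tmem176b, ion channel genes on the Th17 list, stood low in WT IP alone, and Tmem176a was at 273, 307, 43.7 and 324 CPM.

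**Figure D4:**
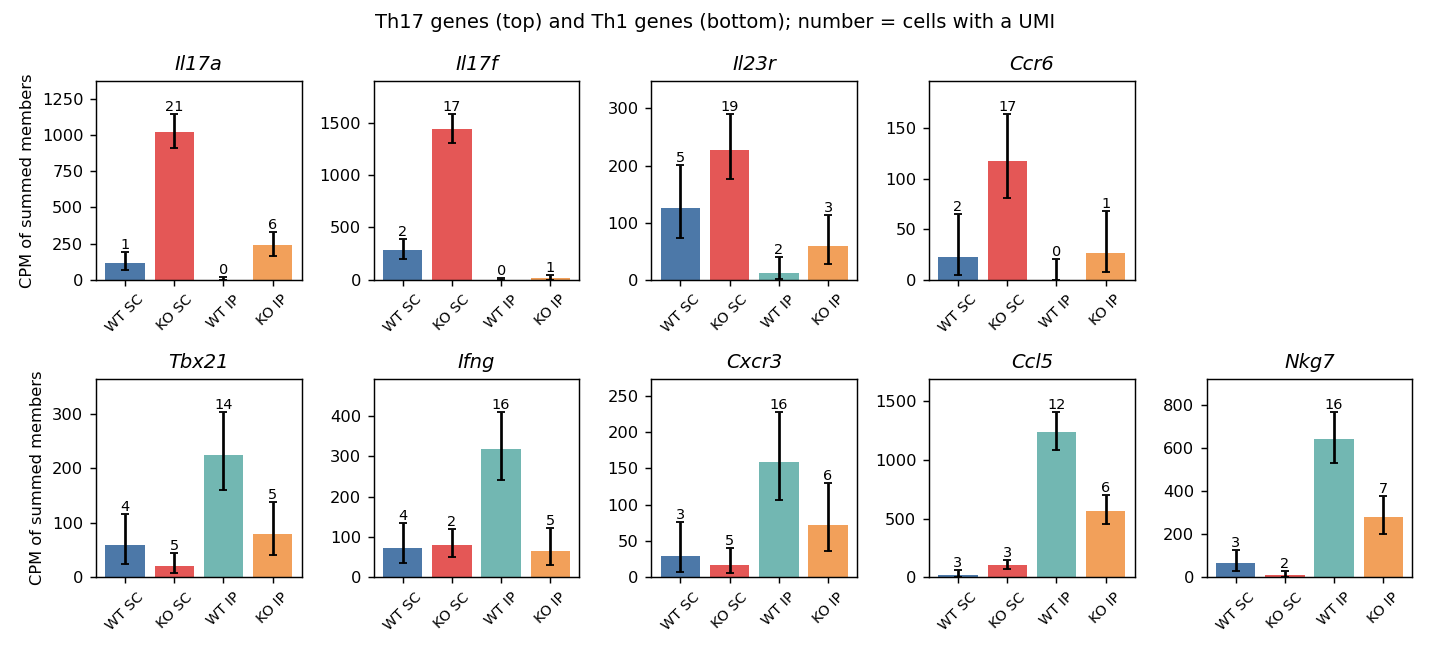
CPM over the members' summed UMIs (y axis) for 4 Th17 genes (top row) and 5 Th1 genes (bottom row) in each library; error bars are exact 95% Poisson intervals and the number above each bar is the members with a UMI. The Th17 genes are highest in KO SC and at or near 0 in WT IP, whereas the 5 Th1 genes drawn are highest in WT IP.

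The 5 Th1 genes of the set were highest in WT IP, while other genes of the 14 on the Th1 list were not. Il18r1 was at 502, 446, 230 and 535 CPM and Id2 at 532, 421, 98.4 and 297, and both were lowest in WT IP. Il18rap and Il12rb2 were highest in KO IP, and Stat4 was at 709, 356, 689 and 654 CPM. Of the set, Nkg7, a protein of cytotoxic granules, was at 66.5, 10.4, 639 and 277 CPM. Ccl5, a chemokine that draws other T cells and monocytes, was at 22.2, 104, 1235 and 568 CPM, although 1 member held 129 of its 226 UMIs in WT IP. Tbx21 was at 59.1, 20.7, 224 and 79.3 CPM and Cxcr3, the receptor for interferon-induced chemokines, at 29.5, 17.3, 158 and 72.7. IP was above SC in both genotypes for these 4 genes. The intervals left out equality for Nkg7 and Ccl5 in both genotypes and for Tbx21 and Cxcr3 in WT, and in KO the last 2 had too few UMIs to compare. KO IP was below WT IP for all 4 genes, with log2 ratios of -1.19 for Nkg7, -1.12 for Ccl5, -1.46 for Tbx21 and -1.09 for Cxcr3. For 3 of them the difference fell short of 2-fold without the member of WT IP richest in the gene. The richest member held 41 of the 117 Nkg7 UMIs of WT IP but only 4 of its 29 Cxcr3 UMIs, which 16 of 24 members carried. Without the member that held 129 Ccl5 UMIs, Ccl5 was at 555 CPM there and its log2 ratio was 0.04 (-0.40 to 0.47). Treated in the same way, the ratio of Nkg7 was -0.70 (-1.28 to -0.14) and that of Cxcr3 -0.94 (-2.14 to 0.10), both short of 2-fold, and that of Tbx21 was -1.07 (-2.21 to -0.09). The haemoglobin-rich member of WT IP held 12 of its 41 Tbx21 UMIs, and without the 3 barcodes the Tbx21 ratio was -1.31 (-2.50 to -0.31). In CPM Ifng differed from them. It was at 73.9, 79.4, 317 and 66.1 CPM, so that WT IP stood apart. The KO libraries did not differ beyond counting error, with a log2 ratio of IP against SC of -0.23 (-1.50 to 0.86). However, the 23 Ifng UMIs of KO SC came from 2 of 44 members, 1 of which held 16. In KO IP 5 of 18 members carried Ifng, so by members IP was above SC in KO too. Pdcd1, the checkpoint receptor PD-1, also peaked in WT IP, at 29.5, 27.6, 224 and 59.4 CPM, and 11 of its 24 members carried it.

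Cells counted as naive in IP carried some of these genes too. Nkg7 was at 466 CPM in the 10 naive cells of WT IP and 229 CPM in the 11 of KO IP, against 2.22 and 2.14 CPM in the naive cells of SC, and Ccl5 was at 1501 and 492 CPM in IP. The depot difference in these genes was therefore not shown to be particular to the members.

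The members with Th17 genes alone differed from those with Th1 genes alone in much else. Both sets were chosen from the same cells, so the following is description. Ccr4 was found in 21 of 38 Th17-gene members and 5 of 43 Th1-gene members, Tnfsf8 in 32 and 18, and Cd40lg in 25 and 31. Ordered by the smallest difference over the 3 libraries with at least 5 cells of each kind, the leading genes of the first kind were Atrnl1, Il1r1, Bcl2a1a, Sgip1, Nav2, Fabp5, Ppp1r14c, Actn2, Tmem176a and Ltb4r1 (a leukotriene receptor). Il1r1 was seen in 19 Th17-gene members and no Th1-gene member, and Tmem176a in 34 and 4. The leading genes of the second kind were Plscr1, Pou6f1, Fasl (the death ligand of cytotoxic cells), Nr3c2, Ttc7b, Exoc6, Itga4 (the alpha chain of the integrin VLA-4), Pcca, Lyst and Gimap7. Gimap7 was seen in 22 Th1-gene members and no Th17-gene member, and Itga4 in 31 and 11. Depth differed between the kinds, with a median of 6804 against 4438 UMIs in KO SC and 9688 against 6266.5 in WT SC, and its part in these counts was not tested.

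The depot comparison asked which genes separated members of IP from those of SC in both genotypes. Over all genes with at least 20 UMIs in the 2 libraries together, 7.05% of 2753 genes were at least 2-fold higher in IP of WT with an interval that leaves out 1, and 7.3% were lower. In KO 6.43% of 3359 genes were higher in IP and 7.65% lower. By the fold alone these shares were 8.86% and 8.72% in WT and 8.22% and 10.2% in KO. Of the 2519 genes compared in both genotypes, 30 were past this fold upwards in both, 43 downwards in both and 18 in opposite directions. The same sign was found for 59.6% of these genes. Of the Th1 list in WT, 5 of 10 genes compared were higher and 2 lower, with a median log2 ratio of 1.03 beside -0.05 for all genes. In KO it had 4 of 10 higher and none lower, with a median of 0.57 beside -0.04. Il18r1 and Id2 were the lower genes of WT. The Th17 list had all 5 genes compared lower in IP of WT, with a median of -2.59, and in KO 4 of 9 lower and 1 higher, with a median of -0.52. In WT these genes other than Rora had fewer than 20 UMIs in WT IP and were compared through WT SC. In KO Il17f, Il23r and Ccr6 had fewer than that in KO IP. Likewise, the 5 higher Th1 genes of WT had fewer than 20 UMIs in WT SC. Genes kept in this way lean towards the higher library, so neither counts nor medians test a direction.

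Of 15 genes of activation and costimulation, 11 had a log2 ratio below 0 for IP against SC in WT and 10 in KO. Past the fold, 4 were lower and none higher in WT, and 2 were lower and 1 higher in KO. Icos, the costimulator of helper cells, was at 1352, 1872, 503 and 429 CPM, with log2 ratios of IP against SC of -1.42 (-1.80 to -1.06) in WT and -2.11 (-2.52 to -1.75) in KO. Tnfrsf4 (OX40) was at 355, 145, 148 and 46.2 CPM, lower in IP within each genotype and lower in KO within each depot. Rgs1, a regulator of chemokine receptor signalling that marks resident T cells, was at 1211, 1637, 530 and 317 CPM and Rgs2 at 458, 763, 219 and 324. For both genes the IP libraries lay below the SC libraries, but without the 3 barcodes Rgs1 in WT differed by -0.87 (-1.26 to -0.50), which is short of 2-fold. Itgae, the integrin CD103, had 11 and 21 UMIs in SC and none in IP. The tissue residence list did not differ one way, with 1 of 11 genes higher and 2 lower in WT and 5 of 12 lower in KO. Satb1, a chromatin organiser, was at 849, 815, 98.4 and 244 CPM and was lower in IP in both genotypes.

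Icos and Rgs1 were also higher in SC when members of 1 kind were set side by side. Among Th1-gene members Icos was at 1228, 1120, 475 and 363 CPM, and Rgs1 at 971, 578, 488 and 182. The KO SC values rested on 31 Icos UMIs in 3 cells and 16 Rgs1 UMIs in 4 cells. Among Th17-gene members Icos was at 2018 and 2233 CPM in the SC libraries and 531 in KO IP, and WT IP had no such member. The kinds were chosen from these same cells, so this is description. Tnfsf8 did not follow this order, since Th1-gene members held 953 CPM in WT SC and none in the 5 cells of KO SC.

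By the rule for named genes, the 12 genes that were higher in IP in both genotypes were Nkg7, Top2a, Airn, Ccl5, Dusp2, Clic4, Egr1, Jun, Dut, Epsti1, Hist1h1e and Lbr. Dusp2, a phosphatase induced by T cell activation, was at 133, 69.1, 568 and 350 CPM. Epsti1, an interferon-induced gene, was at 148, 82.9, 432 and 390 CPM, and it was also higher in IP among naive cells, with log2 ratios of 2.41 and 1.91. Top2a, Dut and Hist1h1e belong to dividing cells, and 1 member of KO IP held 41 of its 47 Top2a UMIs and 37 of its 40 Mki67 UMIs. Jun and Egr1 rested on 1 member of WT IP, which held 131 of its 135 Jun UMIs and was among the 3 barcodes with red cell or stromal transcripts. Without those the log2 ratio of Jun in WT was -2.77 in place of 1.76 and that of Egr1 1.37 in place of 3.16. Airn, a noncoding RNA, had 28 UMIs in WT IP, and 4 without the same members. Without the member richest in the gene, 4 of the 12 were still past the fold with at least 20 UMIs in both genotypes (Nkg7, Ccl5, Dusp2 and Epsti1), and the log2 ratio of Top2a in KO was -0.02 (-1.74 to 1.36).

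The 12 genes that were lower in IP in both genotypes were Il17f, Pxdc1, Nav2, Ern1, Sgip1, Ctss, Atrnl1, Satb1, Sh3rf1, Mdn1, Plcb4 and Odc1. Of these, Atrnl1, Sgip1 and Nav2 were among the leading genes of Th17-gene members, and Pxdc1 and Satb1 differed between the 2 kinds by log2 ratios of 3.30 and 2.18 over all libraries, while Il17f is one of the genes that set the kinds apart. Without the member richest in the gene, 6 of the 12 were still past the fold with at least 20 UMIs in both genotypes (Pxdc1, Nav2, Ern1, Ctss, Satb1 and Odc1). Odc1, the first enzyme of polyamine synthesis, was at 1160, 1516, 399 and 390 CPM. Ern1, a sensor of unfolded proteins in the endoplasmic reticulum, was at 480, 649, 98.4 and 152 CPM, and Ctss, a protease of antigen presentation, at 163, 142, 38.3 and 26.4. Both IP libraries were below both SC libraries for all 3 genes. Isg15, an interferon-induced gene, and Capg, an actin-capping protein, were further list genes lower in both genotypes, and Isg15 was at 148, 155, 65.6 and 26.4 CPM.

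**Figure D5:**
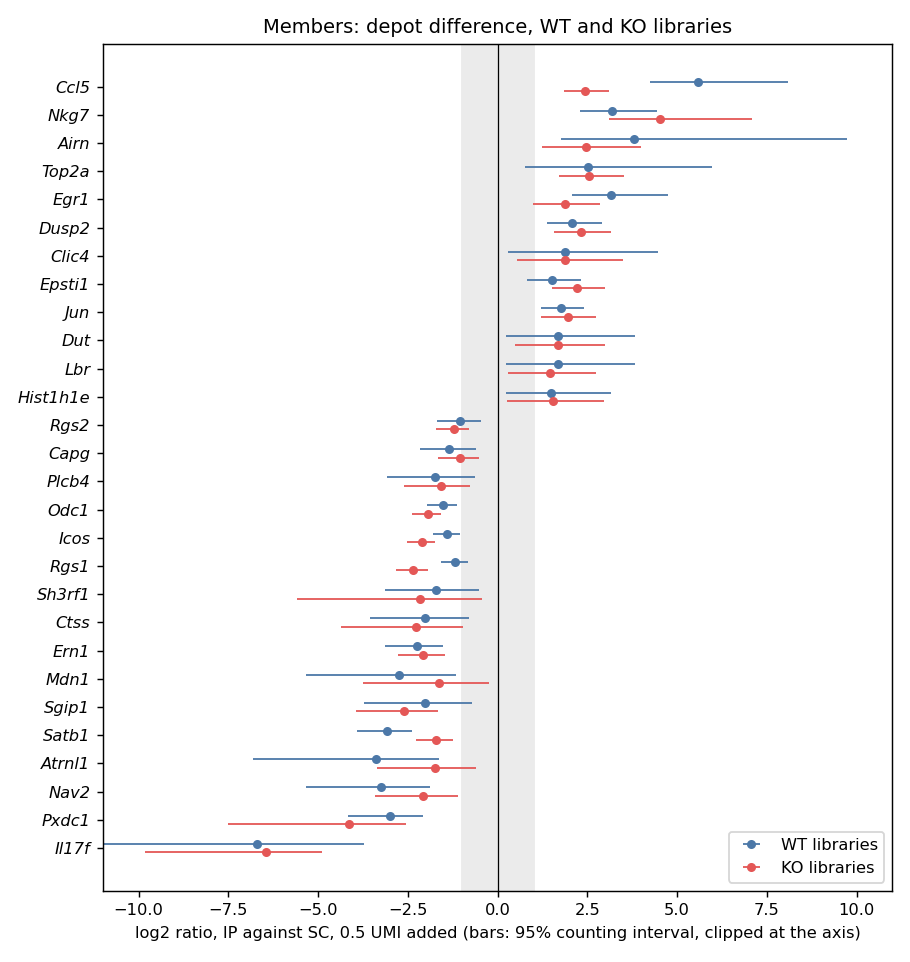
Log2 ratio of IP against SC (x axis, 0.5 UMI added) for the 24 named depot genes and for Icos, Rgs1, Capg and Rgs2, in WT libraries (blue) and KO libraries (red); bars are 95% counting intervals clipped at the axis, and the grey band spans less than 2-fold. All points lie outside the band on the same side in both genotypes; without the members that carry red cell or stromal transcripts, Jun turns negative in WT.

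The genotype comparison asked how members of EC-Tert-KO mice differed from those of WT within each depot. In SC 4.05% of 3282 genes were at least 2-fold higher in KO with an interval that leaves out 1 and 4.91% were lower, and in IP 5.75% of 2834 genes were higher and 7.97% lower. By the fold alone they were 6.46% and 6.43% in SC and 6.88% and 9.56% in IP. Of 2514 genes compared in both depots, 12 were higher in both, 18 lower in both and 16 were past the fold in opposite directions. The same sign was found for 52.5% of genes.

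The Th17 list was the one list with more than 1 gene higher in KO in each depot, and Il17a was the gene they shared. In SC 3 of 9 genes compared were higher (Il17a, Il17f and Ccr6) and none lower, with a median log2 ratio of 0.83. In IP 4 of 5 were higher (Il17a, Il1r1, Tmem176a and Tmem176b), with a median of 2.88. The median of all genes was -0.04 in both depots. These 4 genes had fewer than 20 UMIs in WT IP and were compared through KO IP. Il17a and Ccr6 likewise had fewer than 20 UMIs in WT SC. Genes kept in this way lean towards the higher library, so neither counts nor medians test a direction. In the Th1 list 1 of 7 genes was higher in KO SC (Ccl5) and none lower, with a median of -0.26. In IP 5 of 12 were lower in KO (Tbx21, Ifng, Cxcr3, Ccl5 and Nkg7) and 3 higher (Il18r1, Il18rap and Id2), with a median of -0.82. Cxcr3, Ccl5 and Nkg7 fell short of 2-fold without the member richest in the gene. Tbx21, Ifng and Cxcr3 had fewer than 20 UMIs in KO IP and were compared through WT IP. Il18r1 and Il18rap are the chains of the interleukin 18 receptor. Without the 3 members with red cell or stromal transcripts Il17a stayed higher in KO IP, with 28 UMIs against none.

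Of the activation list, 3 of 16 genes were lower in KO SC (Tnfrsf4, Tnfrsf9 and Tnfrsf18) and 2 of 14 lower and 2 higher in KO IP. Tnfsf8, which belongs to this list and to that of CD153 and senescence-linked genes, had a log2 ratio of KO against WT of 0.39 (0.03 to 0.76) in SC, under the fold, and was higher in KO IP, with 1.58 (1.05 to 2.15). Without the 3 barcodes the latter was 1.15 (0.58 to 1.75). The senescence-linked list had no gene past the fold in SC, with 6 compared, and 1 higher (Tnfsf8) and 1 lower (Pdcd1) among 8 in IP. Spp1, which the list also holds, had no UMI in any member, and Cdkn1a, the cell cycle inhibitor p21, was at 406, 221, 92.9 and 139 CPM. Ctla4, an inhibitory receptor, was at 635, 1302, 481 and 627 CPM and was past the fold in SC only, where without 1 member its log2 ratio was 0.94 (0.60 to 1.30). Il7r, the receptor for the survival cytokine interleukin 7, was at 517, 908, 311 and 931 CPM and was past the fold in IP only. In the checkpoint list Tox, a factor of exhausted cells, was lower in KO in both depots, at 569, 242, 792 and 264 CPM. Nr4a2 and Pdcd1 were lower in KO IP. Jun, an immediate early gene, was lower in KO in both depots as well, but in IP its log2 ratio of -1.24 became 3.32 without the 3 barcodes.

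The 10 named genes higher in KO in both depots were Il17a, Simc1, Notch2, Cpm, Lrrc8c, Kbtbd11, Usp36, Ddx10, Gclc and Lamc1. Apart from Il17a their levels were low. Cpm, a carboxypeptidase, was at 111, 318, 43.7 and 324 CPM, and Lrrc8c, a subunit of the volume-regulated anion channel, at 36.9, 162, 87.4 and 244. Notch2, a receptor of cell fate signalling, had 2, 30, 6 and 18 UMIs. Of Usp36 the interval in IP reached 0, and without the 3 barcodes that of Kbtbd11 did too, with 1.34 (-0.16 to 3.27) on 5 and 13 UMIs. Only Il17a, Cpm and Lrrc8c were still past the fold, with at least 20 UMIs in both depots, without the member richest in the gene. In naive CD4 T cells of SC, where 93 and 243 cells gave more UMIs, Simc1, Notch2, Cpm and Lrrc8c had log2 ratios of 0.09, -0.21, -0.40 and -0.30.

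The 10 named genes lower in KO in both depots were Ifitm2, Bmpr2, H2-Q7, Tpd52l2, Kcnq5, Ptpn11, Trbc1, Ptms, the reporter GFPcds and Tnfrsf4. H2-Q7, a nonclassical MHC class I gene with near-identical neighbours whose reads are uncertain, was at 584, 145, 1131 and 350 CPM. Its log2 ratio of KO against WT was -2.0 (-2.58 to -1.45) in SC and -1.68 (-2.16 to -1.25) in IP, and in naive CD4 T cells it was -1.14 and -1.43. H2-Q7 was thus lower in KO in both populations and both depots. Trbc1, 1 of a near-identical pair of T cell receptor beta constant genes, was found in 15 of 17 members of WT SC, 15 of 44 of KO SC, 14 of 24 of WT IP and 3 of 18 of KO IP, whereas its pair Trbc2 was found in 16, 43, 21 and 18. Reads may be shared between the pair. Ptpn11, the phosphatase SHP-2, was at 133, 41.4, 120 and 39.6 CPM. Ifitm2 in WT IP had 51 of 53 UMIs in 1 of the 3 barcodes with red cell or stromal transcripts, and without these its log2 ratio in IP was 1.97 (-0.06 to 5.47), on 2 and 9 UMIs. When the member richest in the gene was left out, H2-Q7, Ptpn11, Trbc1 and GFPcds were still past the fold with at least 20 UMIs in both depots, and the other 6 were not.

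GFPcds, the coding sequence of GFP, marks cells in which Cre has acted. It was detected in 12 of 17 members of WT SC (297 UMIs), 14 of 44 of KO SC (240 UMIs), 19 of 24 of WT IP (381 UMIs) and 7 of 18 of KO IP (109 UMIs), while Tdtomato was detected in 9 members in all, with 11 UMIs. The log2 ratio of KO against WT was -1.40 (-1.66 to -1.15) in SC and -1.53 (-1.85 to -1.22) in IP, where it was -2.05 (-2.44 to -1.68) without the 3 barcodes. Naive CD4 T cells had the same direction, with -0.86 and -1.50, and 172 of 357 of them carried GFPcds. So did 246 of 797 B cells and 246 of 792 stromal cells. No cell type known to lack GFPcds was at hand as a background, so these shares are shares of cells with a UMI and not of cells in which Cre had acted. Which members had lost Tert was not measured.

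Transcripts of other cells were few in the members. Of 7 macrophage markers none had a UMI in SC and 2 had 1 UMI each in either IP library, and Cd79b and Ms4a1, which define B cells, were at 0 in all 4 libraries. The 7 genes of the B cell list had 6, 4, 49 and 5 UMIs, chiefly of Ighm, with 5, 4, 9 and 4 UMIs, and of Ebf1, with 40 UMIs in WT IP, where 1 member held 41 of the 49. Of the 6 natural killer cell markers Ncr1, Klra8, Klre1 and Gzma were at 0 throughout, and the 6 together had 1, 2, 0 and 7 UMIs. Of 5 endothelial markers Cdh5, Egfl7, Cldn5 and Emcn were at 0, and Pecam1 was at 103, 149, 16.4 and 112 CPM. Nearly all stromal and haemoglobin UMIs of IP came from the 3 barcodes named above. Zbtb16, the transcription factor PLZF of innate-like T cells, had 0, 2, 5 and 0 UMIs, and Tcrg-C1, a gamma delta T cell receptor gene, had 11 UMIs in 6 members of KO SC. The 11 genes of the list of innate-like and gamma delta T cells together had 32, 47, 22 and 12 UMIs, in 8, 21, 7 and 4 members. Klrk1, which belongs to it, was seen in 7, 14, 2 and 3 members.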

How the data were processed

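Cells of mouse adipose tissue were profiled with 10x Genomics Chromium 3′ v3 chemistry, and 1 library was made for each of WT SC, KO SC, WT IP and KO IP. Values deposited by the authors were UMI counts, not normalized, from Cell Ranger 7.0.0 per the file headers. The submitters' processing notes also list STAR 2.6 and mm10. Whether introns were counted and how cells were called is not given in the sources used here. Counting introns would favour long genes, and near-identical copies can lose reads to each other. Each table held 32290 features, of which 5 were reporters.

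A barcode needed 200 genes or more and no more than 25% mitochondrial UMIs, which 4136 of 4927 met. Kept libraries had median depths of 7463, 6722, 13054 and 10287 UMIs. B cells had at least 2 UMIs of Cd79a and none of the Cd3 genes, and stromal cells at least 5 UMIs of Dcn, Col1a1 and Col3a1 with no Ptprc, Cd3 or Cd79a. Memory and effector CD8 T cells had Cd8a or Cd8b1 in place of Cd4. Scrublet, run through scanpy 1.11.5 with 5% doublets expected, marked 0.556% of kept barcodes, and none were removed.

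UMIs were summed over members per library and given as CPM with exact Poisson intervals. Shares carry exact Clopper-Pearson intervals. For genes with at least 20 UMIs in 2 libraries together, log2 ratios were taken after adding 0.5 UMI, with exact conditional binomial intervals. A gene was past the fold at 2-fold or more with an interval that leaves out 1. A count of 0 was taken to allow 3 counts. Because PCR and sampling act on the same cells, intervals cover counting error only. With 1 library per group no test was run. Statistics were tested on simulated data.

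Named genes were a list of fixed genes and reporters; the 10 genes highest and the 10 lowest in KO and the 12 largest in IP and in SC, among genes with at least 20 UMIs in each pair of libraries that differed the same way in both pairs, ordered by the smaller absolute log2 ratio; 15 leading genes against naive CD4 T cells and 8 against regulatory T cells; and list genes past the fold the same way in both pairs. Some genes that these rules name are not reported here. Genes of the member rule, mitochondrial, ribosomal, haemoglobin, immunoglobulin, sex-linked and unnamed genes were left out of the rankings. Members and lists were chosen with earlier results of these data known. Coordinates are from GENCODE (GRCm38), where 32158 features matched by identifier. Scripts ran in Python 3.11.15 with scipy 1.17.1, numpy 2.4.6, matplotlib 3.10.9 and pandas 2.3.3.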

Additional observations from a re-analysis of the deposited data

Results flagged for a closer look

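Some list genes differed in opposite directions in the 2 pairs of libraries of a contrast, each past 2-fold with an interval that leaves out 1. The difference between the pairs was not tested. Ccl5 was higher in KO in SC, with a log2 ratio of 2.03 (0.54 to 4.58), and lower in KO in IP, with -1.12 (-1.50 to -0.76). In SC these are 3 UMIs in 3 members of WT and 30 UMIs in 3 members of KO, 1 of which held 17. In IP 1 member of WT held 129 of 226 UMIs, and without it the log2 ratio was 0.04 (-0.40 to 0.47), so the opposite direction rested on that member.

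Tmem176b was lower in IP than in SC in WT, with a log2 ratio of -2.65 (-4.03 to -1.60), and higher in KO, with 1.05 (0.57 to 1.54). It was seen in 8 of 17, 27 of 44, 2 of 24 and 8 of 18 members of WT SC, KO SC, WT IP and KO IP. Without the member of KO IP that held 18 of its UMIs the latter was 0.81 (0.28 to 1.33), short of 2-fold.

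The heat shock genes Hspa1a and Hspa1b, a near-identical pair whose reads may be shared, stood high in WT SC and low in KO SC. Hspa1b differed between genotypes by a log2 ratio of -1.71 (-2.57 to -0.91) in SC and 1.0 (0.36 to 1.68) in IP. Hspa1a differed between depots by -1.42 (-2.16 to -0.74) in WT and 2.70 (1.52 to 4.23) in KO. In naive CD4 T cells Hspa1a was at 960, 12.3, 104 and 114 CPM, so the high library was the same in both populations. Of the 54 UMIs of the members of WT SC, 1 member held 33, and without it the difference between depots in WT was -0.19 (-1.06 to 0.71). Without the member richest in Hspa1b, its difference between genotypes in IP was 0.23 (-0.54 to 0.98).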

How the results depend on the processing

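Counts of genes past 2-fold moved with the filter and with depth. For KO against WT in SC, 133 genes were higher and 161 lower. With at least 50 UMIs these were 55 and 46, and after thinning each member to 2000 UMIs 48 and 41. Without a filter 350 were lower. In IP 163 were higher and 226 lower, against 55 and 71 with at least 50 UMIs, 332 and 455 without a filter and 18 and 29 after thinning. Without the 3 members with red cell or stromal transcripts, left out after the data had been seen, 129 were lower. For IP against SC in WT, 194 were higher and 201 lower, against 53 and 70, 418 and 358, and 24 and 33 in the same order, and 120 were higher without the 3 members. In KO 216 were higher and 257 lower, against 76 and 137 with at least 50 UMIs and 47 and 100 after thinning, and 511 were higher without a filter. Fewer or more genes were compared by construction.

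With members held to no Lef1 or Ccr7 UMI, WT SC members were 0.927% of kept cells and 7.14% of CD4 T cells. Thinned, the shares of CD4 T cells were 44.4% in WT SC, 34.2% in KO SC and 88.2% in WT IP. Jun in IP against SC of WT reversed to -2.77 without the 3 members. For 129 called differences of chosen genes, not all those called, values were also taken without the member richest in the gene, chosen after the data had been seen. Of these, 78 were still past the fold, 25 had fewer than 20 UMIs, and 4 named values with more UMIs than that reversed. These were Jun to -2.90 and Klf2 to 0.088 for IP against SC in WT, Top2a to -0.021 for IP against SC in KO and Ccl5 to 0.035 for KO against WT in IP. List medians reversed 4 times: regulatory T cell genes for KO against WT in SC to -0.29 with at least 50 UMIs and -1.10 without a filter, and chemokine receptors to 0.037 for KO against WT in IP without Lef1 or Ccr7 and to 0.94 for IP against SC in KO with at least 50 UMIs. The cause was not tested. Of 1650 alternative values of named genes, 52 moved and 5 reversed.

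No paired analysis was possible because each group was 1 library and the labels number no replicates. With 103 members, low counts and single cells limit most genes.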

Other observations

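Broad gene groups had few genes past the fold between the members of the 4 libraries, although many of their genes shifted the same way by less. Of 81 cytosolic ribosomal genes none was past the fold in 3 of the 4 comparisons and 1 (Rps18) was lower in KO SC, with medians of 0.08 and 0.19 for KO against WT in SC and IP and of -0.23 and -0.17 for IP against SC in WT and KO. For KO against WT 56 of the 81 ribosomal genes were above 0 in SC and 65 in IP, and for IP against SC 64 were below 0 in WT and 63 in KO. Of 12 mitochondrially encoded respiratory genes 1 was past the fold in 1 comparison, mt-Nd4l in IP of KO, and the medians lay between -0.34 and 0.05. For IP against SC 11 of these 12 were below 0 in WT and 10 in KO. The interferon-stimulated list had at most 1 gene past the fold in either direction in any comparison.

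Among genes of T cell receptor signalling, Nfatc1 was lower in KO SC (26 UMIs in KO, 46 in WT) and Nfatc2 higher in KO IP (30 in KO, 16 in WT), and of hypoxia and glycolysis genes Hk2 was higher and Ero1l lower in KO SC, each among 14 compared. In the proliferation list 5 of 7 genes were higher in IP of KO and 3 of 9 were higher in KO of IP, where 1 member of KO IP held most of the UMIs of Mki67, Top2a and Stmn1.

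Il2ra, the high-affinity interleukin 2 receptor chain, had 12, 32, 1 and 18 UMIs. Areg, a growth factor of tissue repair, had 8, 28, 2 and 11 UMIs, and 10 of those in KO SC and 9 in KO IP came from 1 member each.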
